A study of Mus musculus with 3 samples.

Results

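The cytosolic ribosomal protein genes encode the protein part of the ribosome that translates nuclear mRNAs. They were taken by symbol (Rpl and Rps names for the large and the small subunit, Rpsa, and Rplp0, Rplp1 and Rplp2 of the stalk, with pseudogenes left out), which gave 84 of the 32285 genes in the files, 52 of the large subunit and 32 of the small subunit. They were measured in CD31- CD45- cells of the stromal vascular fraction, the cells left when adipocytes float off collagenase-digested fat, from subcutaneous depots of 3 wild-type male C57BL/6J mice of 8 weeks. Each mouse gave 1 single-cell droplet library, all mice belong to 1 condition, and no animal carried a transgene or received a treatment according to the labels. The comparisons are therefore between cell states within each mouse. Cells were gated on unique molecular identifiers (UMIs, 1 per captured RNA molecule). The adipocyte stem cell (ASC) gate required at least 3 UMIs of Dpp4 and Pi16 together and at most 1 of Icam1 and Fabp4. The preadipocyte (PreA) gate required at least 4 UMIs of Icam1 and Fabp4 together and at most 1 of Dpp4. The adipocyte regulatory cell (Areg) gate required at least 1 UMI each of Clec11a and Fmo2 and at most 1 each of Fabp4 and Dpp4.

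A ribosome joins a small subunit, which holds the mRNA and reads its codons, to a large subunit, which forms the peptide bonds. Each cytosolic ribosome holds about 1 copy of most of its proteins, so cells make them in matched amounts, and their mRNAs are among the most abundant of a cell. In mammals these mRNAs begin with a run of pyrimidines at their 5′ end, the TOP motif, through which mTOR and LARP1 control their translation, together with the mRNAs of elongation factors. Few ribosomal protein genes have an expressed paralog.

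The libraries held 13698, 6872 and 16220 barcodes, of which 12984, 6414 and 15179 passed the limits on detected genes (over 500) and on UMIs from mitochondrial transcripts (under 5%). The ASC gate took 7399, 3169 and 9273 cells of mice 1, 2 and 3, the PreA gate 2278, 1394 and 1889, and the Areg gate 270, 384 and 404. Cells that met 2 gates were left out. Pairs of libraries shared between 52 and 81 barcode sequences. The gates were described with 12 markers each that the gates did not use. These lists were chosen with earlier results of these data known, so they are no independent check. All 12 ASC markers were lower in the PreA gate than in the ASC gate, all 12 PreA markers were higher there, and 11 of 12 Areg markers were higher in the Areg gate than in the ASC gate (edgeR, adjusted p under 0.05). Areg markers were not particular to the Areg gate, since 8 of the 12 were higher and 1 lower in the PreA gate than in the ASC gate. Against the PreA gate, 9 Areg markers were higher and 1 lower in the Areg gate. The Areg gate also held PreA markers, 11 of 12 of which were higher than in the ASC gate, at a summed level of 5026 against 1007 CPM (UMIs per 1000000 UMIs of the sum).

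The start sites of members that moved most, and of paralogs that moved against them, are shown because the members share a feature there that the symbol rule did not use. The RefSeq table of starts used here (GRCm38.p6) matched 64 of the 84 members. An unbroken run of at least 8 letters, each C or T on the gene's own strand, lay within 40 bases of the start in 49 of these 64 genes (76.6%), and in 32.6% of the 27025 genes with a start. The letters CCGGAAG, the core bound by the ETS family of transcription factors, stood on either strand of the 300-base promoter in 26 of 64 members (40.6%) and in 9.93% of all genes. These matches are descriptions of annotated starts, which can lie some bases from the start that a cell uses. The run is in capitals in each 30-base window below, written 5′ to 3′ on the strand given. Rps15, Rpl5, Rps12, Rpl4 and Rpl13a were among the members with the largest falls, and Rpl22l1 and Rps27l are paralogs that did not fall.
Rps15, chr10:80292447-80292476, plus strand: cagcccgtaCTTCCTTTTCCgagtaaccgc
Rpl5, chr5:107900498-107900527, plus strand: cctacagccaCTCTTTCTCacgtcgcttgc
Rps12, chr10:23787181-23787210, minus strand: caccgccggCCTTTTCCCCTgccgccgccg
Rpl4, chr9:64173361-64173390, plus strand: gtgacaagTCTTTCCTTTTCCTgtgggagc
Rpl13a, chr7:45128722-45128751, minus strand: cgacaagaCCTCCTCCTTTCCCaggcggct
Rpl22l1, chr3:28805499-28805528, plus strand: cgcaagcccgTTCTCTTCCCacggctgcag
Rps27l, chr9:66946054-66946083, plus strand: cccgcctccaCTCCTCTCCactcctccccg
The runs were 11, 9, 11, 14, 14, 10 and 9 bases long in this order. Rpl22l1 and Rps27l both have a run within 40 bases of the start, but its place differs. For Rps27l, Rpl5 and Rpl4 the windows begin 32, 30 and 26 bases before the RefSeq start, and the runs end before it. The GENCODE gene of Rps27l begins at 66946086, after its run. That of Rpl5 begins at 107900502, before its run, and that of Rpl4 at 64173375, inside its run. A run before the start is not part of an mRNA from that start. Rps27l has another annotated start, and neither that start nor that of Rplp0 has such a run. Rpl7l1, a paralog that was higher in PreAs, has none either.

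Ribosomal protein genes gave a larger share of the UMIs of ASCs than of PreAs or Aregs. In the ASC gate the share was 15.1%, 17.2% and 15.2% in mice 1, 2 and 3. In the PreA gate it was 11.7%, 12.8% and 11.2%, and in the Areg gate 11.4%, 13.2% and 12.9%. Every ASC value lay above every PreA and Areg value, while the PreA and Areg values overlapped. The share averaged 15.8% ± 1.18 (SD, n = 3 mice) in ASCs, 11.9% ± 0.826 in PreAs and 12.5% ± 0.957 in Aregs. Within a mouse, the PreA share minus the ASC share was -3.41, -4.37 and -3.99 percentage points, and PreAs had 0.752 ± 0.0191 times the ASC share. Aregs were 0.791 ± 0.0510 times the ASC share, with differences of -3.68, -3.98 and -2.28 points. Between Aregs and PreAs the difference was -0.263, 0.392 and 1.71 points, so that mouse 1 went the other way. No p is given for the summed share: with 3 mice, the smallest two-sided p of an exact test that flips signs is 0.25.

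**Figure D1:**
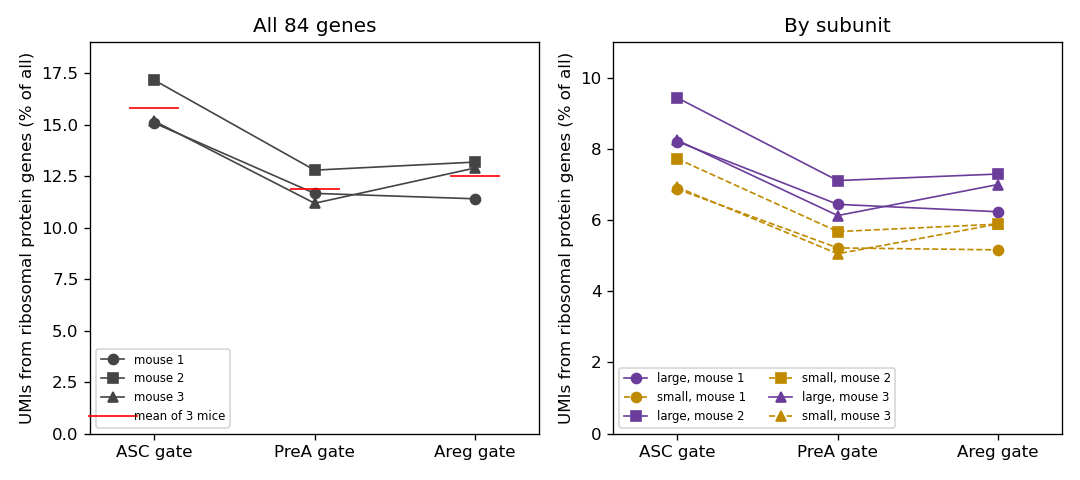
Share of UMIs from ribosomal protein genes in the summed cells of each gate (percent of all UMIs), for all 84 genes on the left, with 1 line per mouse and a red bar for the mean of 3 mice, and for the large and the small subunit on the right. All 3 ASC values (15.1% to 17.2%) are above all PreA and Areg values (11.2% to 13.2%).

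Both subunits took part. The large subunit gave 8.63% ± 0.699 of the UMIs of ASCs and 6.56% ± 0.503 of those of PreAs (SD, n = 3). The small subunit gave 7.17% ± 0.478 and 5.32% ± 0.324. The ratio of large to small subunit UMIs was slightly higher in PreAs than in ASCs in each mouse, 1.23 against 1.19 in mouse 1, 1.25 against 1.22 in mouse 2 and 1.21 against 1.19 in mouse 3. A share falls also when other RNAs rise, so the UMIs per cell were counted too. ASCs held 1096, 2078 and 1010 ribosomal protein UMIs per cell, and PreAs 943, 1678 and 804, although a PreA gave more UMIs in all (8080, 13116 and 7184 against 7268, 12106 and 6657). Other genes gave 6172, 10028 and 5647 UMIs per ASC and 7137, 11438 and 6381 per PreA. Aregs gave fewer UMIs of both kinds, with 602, 1270 and 618 from ribosomal protein genes. UMIs per cell depend on capture as well as on the RNA a cell holds, and the files do not tell the 2 apart.

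The difference was spread over the cells of a gate. The share in the median ASC was 15.2%, 17.2% and 15.3% in mice 1, 2 and 3, and only 6.15%, 3.37% and 5.40% of PreAs exceeded the median ASC of their mouse. Of Aregs, 15.6%, 7.81% and 23.5% did. Of Aregs, 52.6%, 58.3% and 72.0% exceeded the median PreA.

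The share also moved with the depth of a cell. ASCs with fewer than 3000 UMIs had a median share of 6.99% in mouse 1 and 8.77% in mouse 3, against 16.1% and 15.8% in ASCs with 5000 to 8000 UMIs. In mouse 2 the shallow ASCs did not stand below the rest, at 18.0%. PreAs below 3000 UMIs had median shares of 6.64%, 6.98% and 11.3% in mice 1, 2 and 3, so that in mouse 3 they were above the shallow ASCs. Aregs below 3000 UMIs had 12.7%, 11.3% and 13.6%, above the shallow ASCs in mice 1 and 3. From 5000 to 8000 UMIs Aregs were below ASCs in each mouse, at 11.1%, 13.7% and 13.0% against 16.1%, 15.4% and 15.8%. Aregs were also shallower, with a median of 4945, 10104.5 and 4575 UMIs against 7329, 12052 and 6690 in ASCs. The shallow ASCs of mouse 1 gave 6.60% of their UMIs to the nuclear RNA Malat1, and those of mouse 3 gave 3.43%, against 1.06% in mouse 2. From 5000 to 20000 UMIs, where most cells lay, median ASCs were between 14.9% and 17.9% and median PreAs between 10.9% and 12.7%, in each mouse and depth class. The difference between PreAs and ASCs was -4.14 ± 0.475 points when cells with at least 3000 UMIs were thinned to 3000 and gated again. It was -4.31 ± 0.673 points within cells of 5000 to 15000 UMIs. Between Aregs and ASCs the same differences were -3.65 ± 0.607 and -3.71 ± 0.908 points. Cells below 3000 UMIs were left out of both settings.

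**Figure D2:**
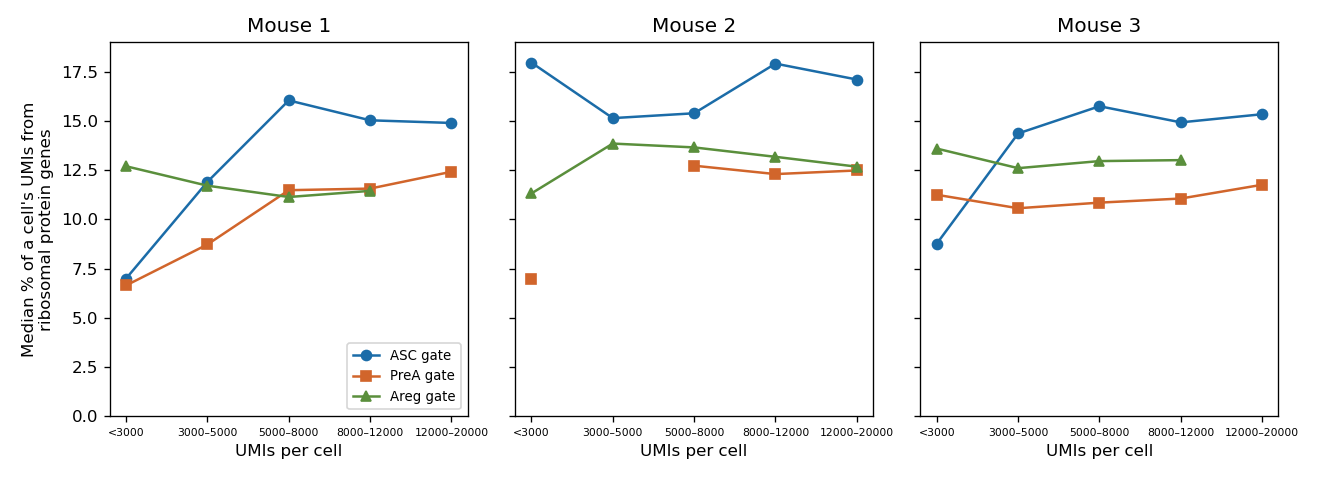
Median share of a cell's UMIs that came from ribosomal protein genes (percent), by the cell's total UMIs, in each gate and mouse; classes with 19 cells or fewer are not drawn. The ASC line is above the PreA line from 5000 UMIs upward in each mouse, and falls to 6.99% and 8.77% below 3000 UMIs in mice 1 and 3.

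Other measures differed between the gates as well. Genes of the response to tissue dissociation gave 2.37% ± 0.145 of UMIs in ASCs, 3.64% ± 0.414 in PreAs and 3.24% ± 0.264 in Aregs (SD, n = 3), and 15 of 24 of them were higher and 5 lower in PreAs than in ASCs. Among cells at or below the median of this response over all kept cells, the PreA share was lower than the ASC share by 4.03 ± 0.475 points. In mouse 1 these were 530 PreAs and 4823 ASCs, and the gates were not matched for the response among them. The median mitochondrial percentage was 1.57 ± 0.328 in ASCs, 2.12 ± 0.521 in PreAs and 2.12 ± 0.408 in Aregs, and with mitochondrial UMIs taken out of the total the difference was -3.92 ± 0.477 points. Cells with a UMI of the division genes Mki67 or Top2a made up 0.889% ± 0.186 of ASCs and 0.710% ± 0.194 of PreAs. Without them the difference was -3.97 ± 0.534 points. Markers of endothelial cells summed to 2.79 to 8.63 CPM in ASCs and 4.94 to 66.5 in PreAs, with 7 of 8 called higher, and those of mural cells to 17.5 to 27.5 and 67.1 to 108, with 6 of 7 tested called higher. Of the defining genes, Pecam1 had a mean of 4.15 CPM in PreAs and the leukocyte gene Ptprc 0.172. In Aregs mural markers summed to 52.7 to 102 CPM, with 4 of 7 called higher than in ASCs. Epithelial markers were listed at 0 in Aregs of mice 1 and 2 and summed to 111 CPM in mouse 3, the mouse with the smallest difference between Aregs and ASCs, and 3 of 3 tested were called higher. The part of these cells in the result was not tested, nor was that of the dissociation response, the mitochondrial percentage or dividing cells.

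Of the 84 genes, 82 averaged at least 10 CPM over the 9 sums of 3 gates and 3 mice and were tested. Rpl3l and Rpl10l, paralogs known from muscle and testis, stood between 0 and 1.42 CPM in every sum. Of the 84 members, 80 averaged 100 CPM or more, 64 averaged 1000 CPM or more and none reached 5000. The 10 most abundant held 23.3% of the members' CPM. Since UMIs were counted at the 3′ end of transcripts, CPM was not divided by transcript length.

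In PreAs compared with ASCs, 79 of the 82 tested members were lower and 1 was higher, while 28.9% of the 13713 genes tested were lower and 26.7% higher (edgeR quasi-likelihood test, adjusted p under 0.05). The median member differed by -0.45 on the log2 scale and the median of all genes by 0.00. The members were close to each other: their quartiles were -0.53 and -0.37, and the SD over members was 0.16. By CPM, 79 were lower in each mouse, a count that was not made for all genes tested. The CPM of the 3 PreA sums lay wholly below the 3 ASC sums for 66 members, and for 20.0% of all genes tested (2747 of 13713). Of the large subunit, 48 of 50 tested genes were lower at a median of -0.44, and of the small subunit 31 of 32, at a median of -0.48.

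**Figure D3:**
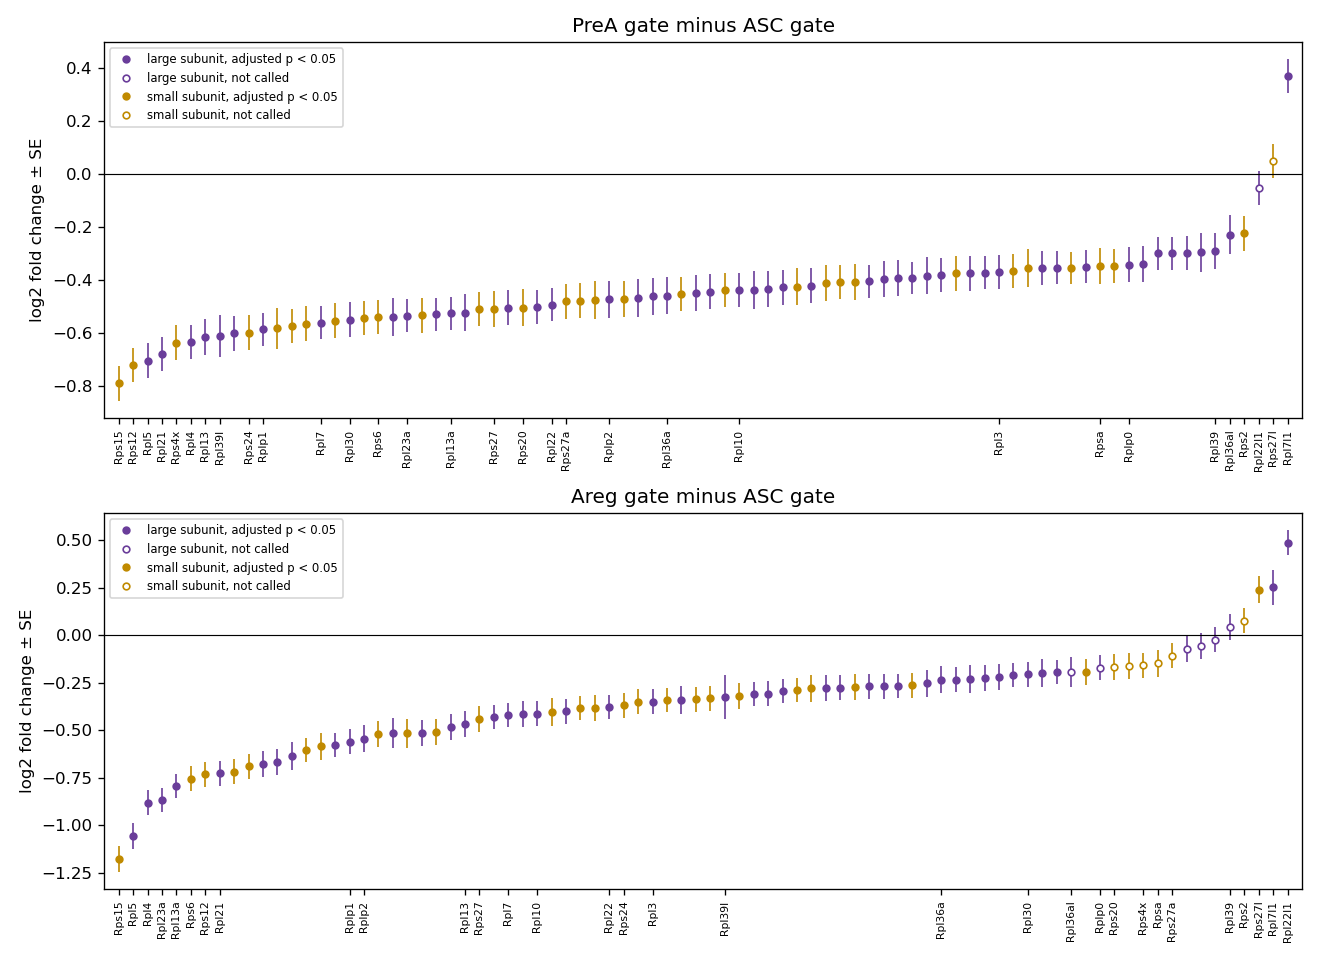
Difference of each of the 82 tested members from the ASC gate (log2 fold change from edgeR, bars ± SE) in PreAs above and in Aregs below, ordered by size in each panel and labelled for genes described in the text; filled points had an adjusted p under 0.05. In PreAs 79 members lie below 0 and were called, and in Aregs 67 did.

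Rps15, a protein near the head of the small subunit, had the largest fall. It stood at 1727, 1768 and 1748 CPM in ASCs of mice 1, 2 and 3, at 1066, 1095 and 998 CPM in PreAs and at 723, 803 and 819 CPM in Aregs. The 3 gates did not overlap, and the Areg values were the lowest. The fall in PreAs was -0.79 ± 0.0655 (log2, SE; adjusted p = 5.65e-07) and that in Aregs -1.18 ± 0.0676 (adjusted p = 4.86e-08).

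Rpl5, which binds 5S rRNA and Mdm2, followed the same order. Its level was 1368, 1389 and 1407 CPM in ASCs, 889, 927 and 849 CPM in PreAs and 615, 697 and 711 CPM in Aregs, again without overlap. It was lower than in ASCs by -0.70 ± 0.0661 in PreAs (adjusted p = 1.80e-06) and by -1.06 ± 0.0683 in Aregs (adjusted p = 1.33e-07).

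Rps12, Rpl21 and Rps4x completed the 5 largest falls in PreAs. Rps12 went from 4080, 4326 and 4084 CPM to 2571, 2739 and 2590 CPM, a log2 change of -0.72 ± 0.0642, and in Aregs it stood at 2313, 2620 and 2678 CPM. Its PreA and Areg values overlapped. Rpl21 fell by 0.68 on the log2 scale (SE 0.0658), but the end of its transcripts matches that of another counted gene, so its level is uncertain. Rps4x, the X-linked Rps4 gene, stood at 3337, 3767 and 3508 CPM in ASCs, at 2279, 2462 and 2369 CPM in PreAs and at 2888, 3250 and 3485 CPM in Aregs. Its PreA values lay below all others while Areg and ASC values overlapped, with a change of -0.64 ± 0.0662 in PreAs and of -0.16 ± 0.0664 in Aregs (adjusted p = 4.57e-06 and 0.0759).

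The smallest falls in PreAs that passed the test belonged to Rps2 and Rpl36al. Rps2, at the mRNA entry of the small subunit, had 1901, 2352 and 1754 CPM in ASCs, 1740, 2069 and 1546 CPM in PreAs and 2083, 2319 and 1966 CPM in Aregs. The mice differed more than the gates did, and within each mouse PreAs were the lowest (-0.22 ± 0.0661, adjusted p = 0.0122). In Aregs Rps2 did not pass the test against ASCs (0.08 ± 0.0667, adjusted p = 0.391).

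Rpl13, Rplp1, Rps24 and Rps12 were among the most abundant members by CPM. Rpl13 of the large subunit stood at 4540, 4577 and 4619 CPM in ASCs, 3220, 3050 and 3065 CPM in PreAs and 3199, 3197 and 3667 CPM in Aregs. ASCs were above both other gates, which overlapped. Rps24 averaged 4143 ± 142 CPM in ASCs, 2850 ± 62.8 in PreAs and 3243 ± 237 in Aregs (SD, n = 3).

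The acidic stalk, which recruits elongation factors, is made of Rplp0, Rplp1 and Rplp2. Rplp1 averaged 4507 ± 329 CPM in ASCs, 3127 ± 195 in PreAs and 3087 ± 143 in Aregs, with log2 changes of -0.59 ± 0.0634 and -0.56 ± 0.0638. Rplp2, whose transcript end is near-identical to a part of another counted gene, changed by -0.47 ± 0.0702 and -0.54 ± 0.0718. Rplp0, the base of the stalk and a common reference gene in quantitative PCR, averaged 2671 ± 254 CPM in ASCs, 2194 ± 182 in PreAs and 2392 ± 73.9 in Aregs. Its change was -0.34 ± 0.0660 in PreAs (adjusted p = 0.000792) and -0.17 ± 0.0666 in Aregs (adjusted p = 0.0586). Rpsa, which is also known as the laminin receptor, was similar, with -0.35 ± 0.0695 and -0.15 ± 0.0701 (adjusted p = 0.00105 and 0.116). Rps6, the ribosomal protein that S6 kinase phosphorylates, went from 1184 ± 37.5 CPM in ASCs to 849 ± 37.0 in PreAs and 709 ± 42.6 in Aregs, and the gates did not overlap.

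In Aregs compared with ASCs, 67 of 82 members were lower and 3 were higher, beside 23.9% of all genes tested lower and 18.1% higher. The median member differed by -0.33 and the median gene by -0.06. Without mouse 2 the number lower was 42, and without mouse 1 or mouse 3 the number higher was 1. The members were less alike than in PreAs: their SD was 0.27, and they ran from -1.18 for Rps15 to 0.49 for Rpl22l1. Rpl4, Rpl23a and Rpl13a followed Rps15 and Rpl5 among the largest falls. Rpl4, a large subunit protein that lines the exit tunnel, went from 823, 817 and 843 CPM in ASCs to 428, 452 and 484 CPM in Aregs, with 579, 548 and 541 CPM in PreAs. The 3 gates did not overlap (-0.88 ± 0.0661 in Aregs, adjusted p = 5.02e-07). Rpl23a, at the tunnel's outer end, and Rpl13a, best known for its release from the ribosome in myeloid cells, fell by 0.87 and 0.79 on the log2 scale. Both kept the order ASC, PreA, Areg without overlap, as in the mean of Rpl23a, which was 1096 ± 26.6, 788 ± 36.9 and 607 ± 24.8 CPM.

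Aregs and PreAs had a similar total, but single members differed both ways. Of 82 members, 20 were higher and 9 lower in Aregs, beside 12.0% and 13.5% of all genes tested. The share of members called higher was above that of all genes, but the share called lower was below it. Members were therefore not called lower more often than other genes. The median was 0.09 for members against -0.05 for all genes. Scaling to library size in place of TMM left 50 members above 0 rather than 60. The number higher was 11 without mouse 2 and 8 without mouse 3, and the number lower was 3 without mouse 1 and 2 without mouse 2. Among cells at or below the median dissociation response 2 members were higher, DESeq2 called 33 higher, and within 5000 to 15000 UMIs 4 were lower. Rpl22l1 (0.54 ± 0.0658), Rps4x (0.48 ± 0.0666), Rps27a (0.37 ± 0.0660), Rpl30 (0.34 ± 0.0662) and Rps20 (0.34 ± 0.0702) were the largest rises. Rps27a, which is made as a fusion with ubiquitin, stood at 2343, 2565 and 2603 CPM in Aregs, 1955, 2116 and 1912 CPM in PreAs and 2541, 2907 and 2565 CPM in ASCs. Its Areg values were thus above all PreA values and overlapped those of ASCs. Rps15 (-0.39 ± 0.0671), Rpl5 (-0.35 ± 0.0680), Rpl23a (-0.33 ± 0.0647) and Rpl13a (-0.27 ± 0.0641) were among the largest falls. The call of Rpl13a was lost without mouse 1 or mouse 2, and that of Rpl23a without mouse 2.

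Some paralogs did not follow the genes they are related to. Rpl22l1, the paralog of Rpl22, stood at 586, 702 and 533 CPM in ASCs, 630, 644 and 547 CPM in PreAs and 800, 990 and 783 CPM in Aregs. Every Areg value was above every other value, and ASCs and PreAs overlapped. It was higher in Aregs than in ASCs by 0.49 ± 0.0655 (adjusted p = 7.73e-05) and did not pass the test in PreAs (-0.05 ± 0.0639, adjusted p = 0.51). Rpl22 itself went the other way, with 1014, 1175 and 1050 CPM in ASCs, 771, 885 and 743 CPM in PreAs and 781, 894 and 846 CPM in Aregs. Rps27l, a p53 target and paralog of Rps27, had 209, 249 and 192 CPM in ASCs, 233, 269 and 200 CPM in PreAs and 272, 279 and 227 CPM in Aregs. The order was the same in each mouse, but the gates overlapped. It was higher in Aregs by 0.24 ± 0.0706 (adjusted p = 0.0165), a call that was lost without mouse 1 or mouse 3. Rps27 was lower by 0.51 ± 0.0668 in PreAs, and its transcript end is near-identical to that of a retrotransposed copy.

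**Figure D4:**
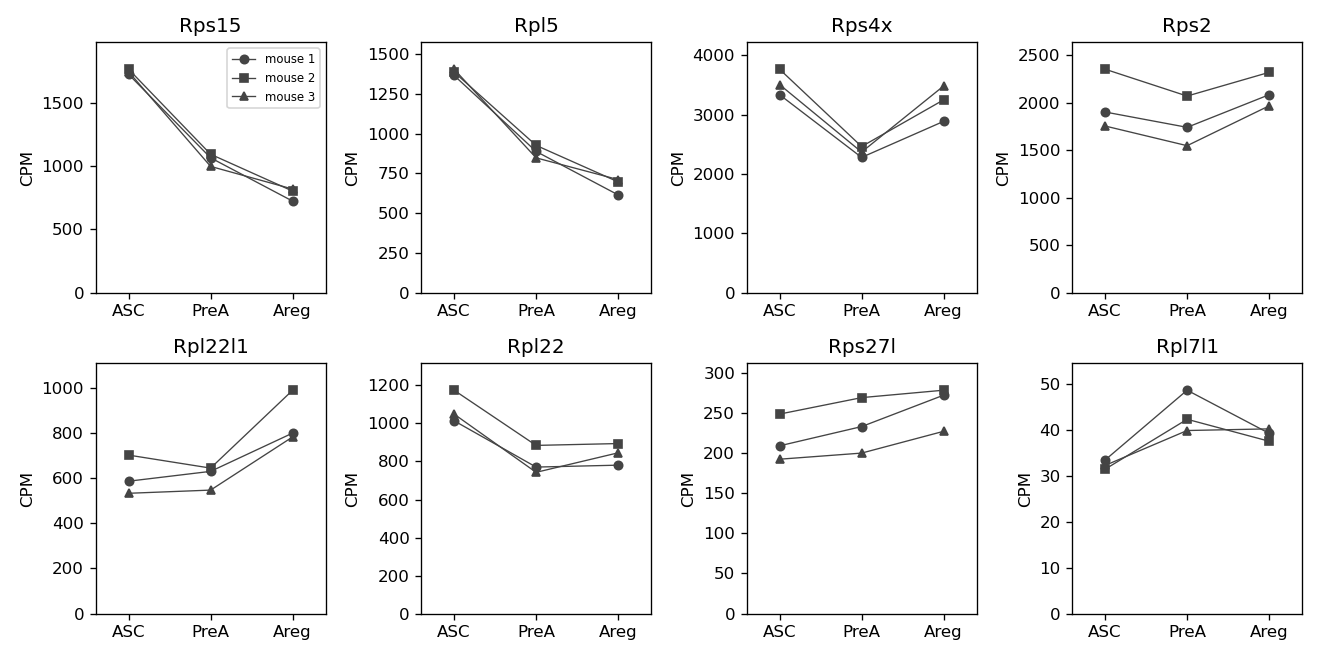
Level of 8 members (CPM in the summed cells of a gate, 1 line per mouse) in ASCs, PreAs and Aregs. Rps15 and Rpl5 descend from ASC to PreA to Areg, Rps4x is lowest in PreAs, and Rpl22l1 is highest in Aregs, at 783 to 990 CPM.

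Rpl7l1 was the 1 member that was higher in PreAs than in ASCs. It is found in ribosome precursors rather than in mature ribosomes. Its level was low, 33.5, 31.5 and 32.3 CPM in ASCs, 48.7, 42.4 and 39.9 CPM in PreAs and 39.3, 37.6 and 40.3 CPM in Aregs, with no ASC value reaching the others. Its transcript end is near-identical to a part of another counted gene, so this level is uncertain. The rise in PreAs was 0.37 ± 0.0634 (adjusted p = 0.000326), while Rpl7 fell by 0.56 (SE 0.0612). The pairs Rpl36a and Rpl36al, and Rpl39 and Rpl39l, did not split in PreAs: Rpl36a changed by -0.46, Rpl36al by -0.23, Rpl39 by -0.29 and Rpl39l by -0.61, all called. Rpl39l had a lower mean level than Rpl7l1, while Rpl39 averaged 2202 CPM over the gates. The call of Rpl36al was lost without mouse 2 or mouse 3. Rpl39 did not pass the test in Aregs (0.05 ± 0.0682, adjusted p = 0.636). Rpl3 and Rpl10, whose paralogs were near 0, fell by 0.37 and 0.44 in PreAs.

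Counts were also scaled to the members' own total, which tests whether a member changed by more or less than the others. This scaling places the members around 0 by construction and shifts all other genes by the change of the members' total. The shares of all genes given below are therefore no yardstick for the members. Between PreAs and ASCs 18 of 82 members stood apart, 10 above and 8 below, and 74.7% of all genes did. The numbers were 7 without mouse 2 and 10 without mouse 3. Rpl7l1, at under 50 CPM, was the highest (0.84 ± 0.0660). Among members with at least 50 CPM in a gate the highest were Rps27l (0.52 ± 0.0746), Rpl22l1 (0.42 ± 0.0694) and Rps2 (0.25 ± 0.0619), and the lowest were Rps15 (-0.32 ± 0.0606), Rps12 (-0.25 ± 0.0559) and Rpl5 (-0.23 ± 0.0627). Between Aregs and ASCs 37 members stood apart, 16 above and 21 below, where 46.2% of all genes did, and the number was 23 without mouse 2 and 24 without mouse 3. Among members with at least 50 CPM in a gate, Rpl22l1 (0.84 ± 0.0709), Rps27l (0.60 ± 0.0795) and Rps2 (0.43 ± 0.0625) were the highest. Rps15 (-0.82 ± 0.0622), Rpl5 (-0.70 ± 0.0645) and Rpl4 (-0.53 ± 0.0647) were the lowest of these. Rpl7l1, at under 50 CPM, stood at 0.61 ± 0.0930. Between Aregs and PreAs 27 members did, 11 above and 16 below, where 28.7% of all genes did, and 11 and 16 without mouse 2 and mouse 3. The comparisons with ASCs share the ASC sums.

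Gene structure was compared with these changes as a description. In the GENCODE annotation of GRCm38, 30 of the 84 members hold a snoRNA gene inside them, as Rpl4 (chr9:64173375-64178666, 5 snoRNAs), Rpl13a (chr7:45125558-45128761, 4) and Rpl5 (chr5:107900502-107909005, 3) do. Rps15 (chr10:80292453-80294114) holds none. In PreAs the median change was -0.46 for the 30 host genes and -0.44 for the 52 other tested members. The last 500 bases of a transcript matched another counted gene at 98% identity or more over at least 90 bases for 10 members. These 10 had a median of -0.44 and the other 72 one of -0.45. Levels of these 10 members are uncertain, since their reads can match the copy as well. They include Rpl36a and Rpl10, besides Rpl21, Rplp2, Rps27 and Rpl7l1.

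Other genes of translation did not all follow. Of ribosomal protein genes that the symbol rule leaves out, Fau (-0.52 ± 0.0670) and Rack1 (-0.49 ± 0.0656) were lower in PreAs. The list of elongation genes held Eef1a1, Eef1b2, Eef1d, Eef1g, Eef1e1, Eef2, Eef2k, Eif5a and Tpt1, not all of which are elongation factors. Of these 9 genes, 7 were lower and none higher in PreAs, at a median of -0.44, beside 28.9% and 26.7% of all genes tested. Eef1b2, which recharges elongation factor 1A, went from 1009, 1062 and 992 CPM in ASCs to 653, 622 and 588 CPM in PreAs, without overlap (-0.78 ± 0.0684, adjusted p = 9.97e-07). Eef2, which moves the ribosome along, averaged 858 ± 39.6 CPM in ASCs and 614 ± 5.93 in PreAs. In Aregs 5 of the 9 were lower and none higher than in ASCs, beside 23.9% and 18.1% of all genes tested.

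Initiation factors were mixed in PreAs, with 15 of 35 lower and 5 higher at a median of -0.13. Of all genes tested, 28.9% were lower and 26.7% higher. In Aregs 18 of the 35 were lower and 2 higher than in ASCs, at a median of -0.21 (23.9% and 18.1% of all genes). The cap-binding factor Eif4e had the largest change of all translation genes examined. It stood at 668, 597 and 877 CPM in ASCs, 163, 148 and 192 CPM in PreAs and 105, 105 and 148 CPM in Aregs. ASCs were far above the other gates in each mouse, with changes of -2.14 ± 0.0668 in PreAs (adjusted p = 1.10e-10) and -2.59 ± 0.0753 in Aregs (adjusted p = 2.30e-10). Eif4b, a cofactor of the helicase that opens the 5′ end, fell by 0.73, and Eif6, which keeps the subunits apart, rose by 0.60 in PreAs.

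Of 34 genes of ribosome assembly and the nucleolus, 8 were higher and 5 lower in PreAs, with a median of 0.00, where 26.7% of all genes tested were higher and 28.9% lower. Nop58, of the box C/D snoRNA complex, stood at 149, 109 and 190 CPM in ASCs and at 386, 196 and 399 CPM in PreAs, a rise of 1.04 ± 0.0901. In Aregs 4 were higher and 13 lower than in ASCs, at a median of -0.22 (18.1% and 23.9% of all genes). RNA polymerase I genes gave 2 higher and 2 lower of 12 in PreAs, led by Taf1d (0.70 ± 0.0737), and genes of growth control 4 higher and 5 lower of 19 tested. The latter include Mtor, at 14.3 ± 2.26 CPM in ASCs and 13.4 ± 2.04 in PreAs, and Larp1, with a change of -0.09 ± 0.0670 in PreAs (adjusted p = 0.292). In Aregs 2 of the 19 growth control genes were higher and 8 lower than in ASCs, at a median of -0.31 (18.1% and 23.9% of all genes). Rptor (-1.08 ± 0.183, adjusted p = 0.00046) and Mtor (-0.51 ± 0.153, adjusted p = 0.0186) were among those lower in Aregs, by edgeR. Larp1 averaged 58.9 ± 7.86 CPM in ASCs and 44.9 ± 1.53 in Aregs, without overlap. The largest called changes of this list in PreAs went both ways. Ddit4 was higher by 0.80 ± 0.204, a call lost without mouse 3, while Mxi1 (-0.65 ± 0.122) and Sesn1 (-0.57 ± 0.133) were lower.

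Mitochondrial ribosomal proteins, which serve the separate ribosomes of mitochondria, went the other way. Of 78 genes, 43 were higher and 4 lower in PreAs than in ASCs, at a median of 0.24, beside 26.7% and 28.9% of all genes. Mrps6 had the largest change, with 26.0, 23.4 and 29.4 CPM in ASCs and 87.0, 44.2 and 85.7 CPM in PreAs (1.35 ± 0.124, adjusted p = 1.46e-06). In Aregs 28 were higher and 2 lower than in ASCs, at a median of 0.23, beside 18.1% and 23.9% of all genes. The 2 sets of ribosomal proteins thus had medians of opposite sign in both comparisons with ASCs, which holds with library size scaling for the cytosolic members at medians of -0.39 and -0.32.

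**Figure D5:**
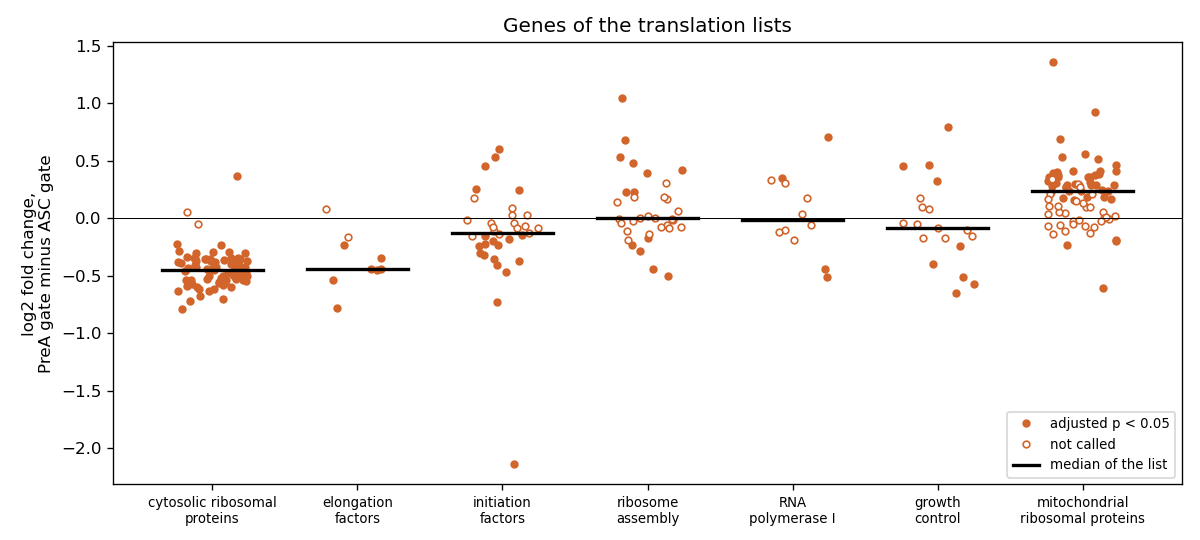
Difference between PreAs and ASCs (log2 fold change) for each gene of 7 groups of translation genes; filled points had an adjusted p under 0.05 and black bars are medians. The cytosolic ribosomal proteins (median -0.45) and the list labelled elongation factors (-0.44) lie below 0, and the mitochondrial ribosomal proteins above it (0.24). The lowest point is Eif4e at -2.14.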

How the data were processed

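Raw, unnormalized UMI counts per gene and barcode were deposited by the authors, 1 matrix per mouse, made with Cell Ranger (version 2.1.1 in the submitters' processing notes, 4.0.0 in the file headers) on mm10. The depth was 94816520, 78108414 and 99328725 UMIs in the cells kept. The members, gates and gene lists were chosen with earlier results of these data known. Doublets were not called; cells that met 2 gates were left out, and an alternative leaves out the 5% of cells with the most UMIs. Counts were summed per mouse and gate, since cells are not replicates, and sums ranged from 1424350 to 61731570 UMIs. The 9 sums were fitted in 1 model with edgeR 4.0.16 in R 4.3.3 (filterByExpr, TMM, quasi-likelihood test, mouse as a block) and p-values were adjusted by Benjamini-Hochberg over 13713 genes at a false discovery rate of 0.05. Sums of a mouse come from 1 animal, and their deviations from the gate means correlated at r of 0.151 to 0.593 across genes, which are not independent replicates. A second fit used the members' summed UMIs as library size. On simulated data with the design of the PreA and ASC comparison (13184 genes) the test recovered 78 of 86 genes changed by 0.5 and 114 of 114 changed by 1 on the log2 scale, with 26 false calls. These false calls were a larger part of all calls than the false discovery rate of 0.05. The simulation changed far fewer genes than were called in the data and held no difference between mice. It therefore does not give the error rate of the calls reported here. Named members are, per comparison, the 5 largest rises and 5 largest falls past the threshold with 1 sign in each mouse and at least 50 CPM in a gate, the 3 highest and 3 lowest relative to the members' total, the 5 most abundant, Rpsa, Rplp0, Rplp1, Rplp2, Rps6 and the paralog pairs, and up to 3 genes per list of other translation genes. This rule named Mtor between Aregs and ASCs. Larp1, and Mtor in PreAs, were named outside this rule after their values were seen. Eif4ebp1 and Eif4ebp2 were looked up with them, and their values are not given. Rps2 and Rpl36al are also named as the smallest falls. Values of some genes that this rule names are not reported here. Alternatives were DESeq2 1.42.0, other scaling, filters and gates, no block, thinning, depth and state limits, and each mouse left out. Sequences and starts are from RefSeq (GRCm38.p6) and gene positions from GENCODE vM21. Sums were made in Python 3.11.15 with pandas 2.3.3, numpy 2.4.6 and scipy 1.17.1, and plots with matplotlib 3.10.9.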

Additional observations from a re-analysis of the deposited data

How the results depend on the processing

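The share of UMIs from ribosomal protein genes stayed lower in PreAs and in Aregs than in ASCs under every alternative run, with differences from -4.31 to -3.70 points for PreAs and from -4.04 to -2.98 for Aregs; the mice left out in turn gave -4.18 to -3.70 and -3.83 to -2.98. Between Aregs and PreAs it was 0.0645 to 1.05 points with a mouse left out and -0.00992 among cells at or below the median dissociation response. Without the replicate block, that is without pairing the sums of a mouse, edgeR called 43 members lower and 1 higher in PreAs than in ASCs, 25 lower and 0 higher in Aregs than in ASCs, and 0 lower and 0 higher in Aregs than in PreAs (for the counts of 0, 1, 3 and 7 members had an unadjusted p under 0.05), and 6, 20 and 9 members apart from the members' total. DESeq2 called 33 members higher in Aregs than in PreAs. With no low-count filter 2 members were higher in PreAs than in ASCs. The number higher in Aregs than in ASCs was 1 with stricter gates, with cells thinned to 3000 UMIs, within 5000 to 15000 UMIs and at a low dissociation response. Between Aregs and PreAs, the low dissociation response left 2 members higher, and 5000 to 15000 UMIs left 4 lower and 16 apart from the total. With a mouse left out, the members higher and lower were 1 to 1 and 77 to 78 for PreAs and ASCs, 1 to 2 and 42 to 66 for Aregs and ASCs, and 8 to 18 and 2 to 10 for Aregs and PreAs, and those apart from the total 7 to 14, 23 to 27 and 11 to 19. Eif5a between Aregs and PreAs went from 0.25 to -0.0109 at a low dissociation response. The cause was not tested in any of these cases. Of 2472 values of single genes under the alternatives, 2193 kept their side of the threshold, 243 were no longer called and 35 became called. Another 1, called before the change, turned its sign. A change of sign between values that were both uncalled is counted among the 2193. Leaving a mouse out leaves 2 mice per gate. Depth limits most the Areg sums, the smallest of which held 1424350 UMIs.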
